A study of Xenopus tropicalis with 26 samples.

Results

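The regions described here are 4428 peaks of H3K4me1 that were listed in ectoderm of one experiment and in no other untreated sample of the series. They were chosen by the peak calls themselves, from the ectoderm list of the first experiment (set 1), which holds 13130 peaks, as those that overlap by at least 1 bp no peak of 4 other lists. These are the set 1 mesoderm list and the untreated ectoderm, mesoderm and endoderm lists of the second experiment (set 2). The 4428 regions, called unshared ectoderm regions here, make up 33.7% of the list (exact 95% Clopper-Pearson interval 32.9 to 34.5). The membership rule therefore used presence or absence in all 5 untreated lists, and no test of those lists is given.

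The study mapped H3K4me1 by ChIP-seq in tissue of Xenopus tropicalis gastrulae at Nieuwkoop-Faber stage 10.25, 7 hours after fertilisation, with tissue dissected from 100 fixed embryos per sample. Animal cap stands for ectoderm, marginal zone for mesoderm and vegetal mass for endoderm. Set 1 comprised untreated ectoderm and untreated mesoderm, each with 2 replicates that were pooled into 1 peak list. Set 2 had 1 library per condition, namely untreated ectoderm, mesoderm and endoderm, the same 3 layers of embryos injected with 5 pg alpha-amanitin, and morpholino endoderm, from embryos that received a Vegt/Otx1/Foxh1 morpholino mixture. Titles label the untreated samples of set 2 as wild type and the samples of set 1 as WT. No sample was labelled as mock-injected, so injection and treatment cannot be told apart. Read numbers are unknown, and the lists differ in length. The excluding lists hold 15925 (set 1 mesoderm), 4148 (set 2 ectoderm), 8812 (set 2 mesoderm) and 3740 (set 2 endoderm) peaks. The treated lists hold 3206 (ectoderm), 3648 (mesoderm) and 2372 (endoderm) peaks after alpha-amanitin and 1192 peaks after morpholinos. The part of sequencing depth in any share below was not tested. With 1 list per layer and condition no p-value is given, and all intervals cover counting error only.

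H3K4me1, the monomethylation of lysine 4 of histone H3, is laid down by Trithorax-related methyltransferases and marks enhancers, both active and primed, as well as the flanks of promoters. At the start of gastrulation the animal cap is fated to form epidermis and neural tissue. Alpha-amanitin blocks RNA polymerase II and with it zygotic transcription. Vegt is a maternal T-box factor, Foxh1 a maternal forkhead partner of Smads downstream of Nodal, and Otx1 a homeobox factor. No source used here names the genome build behind the coordinates, so regions are given by coordinates as deposited, converted to a first base of 1, and no gene or sequence is assigned. For the same reason the labelled tissues were not checked against marker genes.

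The unshared ectoderm regions were narrow and weak peaks of their list. The other 8702 peaks fall into 3 classes, which serve for comparison. There were 725 ectoderm-only peaks (no set 1 mesoderm peak) that recurred in untreated set 2, 3319 peaks with a set 1 mesoderm counterpart that lay outside untreated set 2, and 4658 peaks with both. The median width of the unshared regions was 380 bp, with quartiles of 284 and 577 bp and a range of 216 to 2794 bp. The other classes had medians of 547 bp, 501 bp and 700 bp in the order given. The authors' −log10 q, the peak caller's strength of evidence for a peak, had a median of 7.98 in the unshared regions, with quartiles of 7.04 and 9.61. It was 9.41, 9.34 and 11.9 in the other classes. The authors' fold enrichment over background differed little between the classes, with medians of 3.23, 3.11, 3.33 and 3.33. These values describe peaks that the rule sorted by overlap. A wider peak has more bases with which to overlap another.

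**Figure D1:**
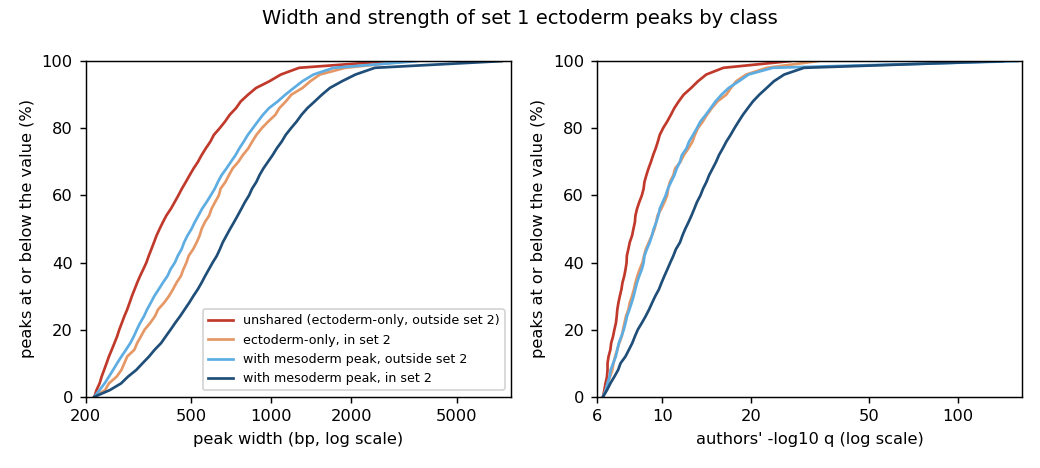
Cumulative share of set 1 ectoderm peaks (y axis, %) at or below a peak width (left, bp) or an authors' −log10 q (right), both on log axes, 1 line for each of the 4 classes. The line of the unshared regions lies to the left of the others in both panels, with medians of 380 bp and 7.98.

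With the list in 5 equal bins, 56.5% of peaks were unshared in the narrowest bin and 12.6% in the widest. By strength, the share fell from 54.2% in the weakest bin to 7.54% in the strongest. In that strongest bin the unshared regions had a median width of 604 bp and were no longer the narrowest class, since peaks with a mesoderm counterpart outside set 2 had 568 bp. None of the 100 strongest peaks of the list was unshared, and 32 of the 1000 strongest were. Of the unshared regions, 1334 (30.1%) were under 300 bp wide, against 17.7% of the whole list, and 247 (5.58%) reached 1000 bp, against 16.4%. Within 50 bp, the edge of the rule separated few peaks. Of the unshared regions, 25 lay within 50 bp of an excluding peak, and 24 peaks of the list were excluded by an overlap of 50 bp or less. The nearest unshared regions lay 2 bp, 3 bp and 7 bp from a set 1 mesoderm peak, on chromosome 10 (5844953 to 5845225), chromosome 4 (39747980 to 39748430) and chromosome 1 (45704048 to 45704455), with −log10 q of 6.33, 7.27 and 7.15. Just outside the rule were peaks with overlaps of 3 bp, 4 bp and 4 bp, on chromosome 1 (143019031 to 143019267), chromosome 4 (85355000 to 85355300) and chromosome 6 (87752683 to 87753417). Their −log10 q were 7.36, 9.87 and 6.97.

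**Figure D2:**
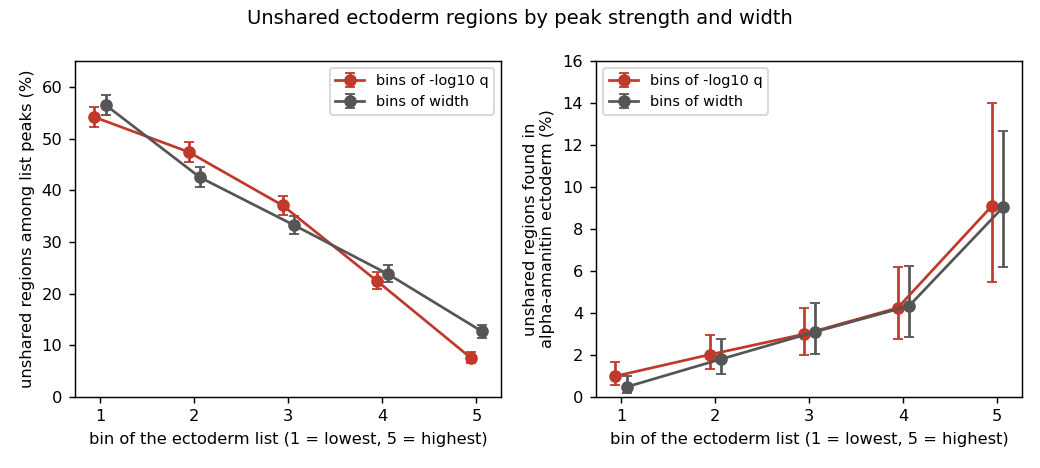
Left, share of unshared regions among the set 1 ectoderm peaks (y axis, %) in 5 equal bins of −log10 q (red) or width (grey). Right, share of the unshared regions found in alpha-amanitin ectoderm (y axis, %) in the same bins. Bars are exact 95% intervals. From the lowest to the highest bin of −log10 q the left share falls from 54.2% to 7.54% and the right share rises from 0.985% to 9.09%.

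The strongest unshared region lay on chromosome 2 (71132440 to 71132808). It had a −log10 q of 27.0 and a fold enrichment of 6.16, and ranked 192nd in the list. It lay in no treated list, although a peak of alpha-amanitin ectoderm lay 122 bp away and another set 1 ectoderm peak 119 bp away. The next was on chromosome 9 (24566079 to 24566777), with a −log10 q of 23.8, and its nearest peak in any excluding list lay 63720 bp off. The other 8 of the 10 strongest regions on chromosomes had −log10 q of 22.4 to 23.6 and were 367 to 1551 bp wide. Of the 10, the gap to the nearest excluding peak ran from 302 bp, for a region on chromosome 1 (58707300 to 58708058), to 249935 bp, for one on chromosome 7 (41486239 to 41486779). The 3 remaining regions of the 10 that no treated list held lay on chromosome 1 (165474685 to 165475051), chromosome 4 (39418391 to 39419448) and chromosome 8 (89384341 to 89385891). The strongest on a scaffold was at scaffold_544 (37214 to 37772), with a −log10 q of 18.1. The 3 widest regions all lay on chromosome 6, at 75305757 to 75308550 (2794 bp), 122824904 to 122827686 (2783 bp) and 102033700 to 102036317 (2618 bp). The last 2 of these were found in alpha-amanitin ectoderm, and the first in no treated list.

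The treated lists took no part in the rule. Of the 4428 regions, 111 were found in alpha-amanitin ectoderm (2.51%, 2.07 to 3.01), where 17.7% of the whole ectoderm list was found. In alpha-amanitin mesoderm 40 were found (0.903%, 0.646 to 1.23), against 19.2% of the list. In alpha-amanitin endoderm it was 14 (0.316%, 0.173 to 0.530), against 11.7%, and in morpholino endoderm 24 (0.542%, 0.348 to 0.805), against 4.62%. In all, 171 regions (3.86%, 3.31 to 4.47) were in at least 1 treated list, against 29.4% of the whole list, and 4257 were in none. The low shares have to be read beside the rule. It removed every peak found in the untreated libraries of the same experiment.

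Against all other ectoderm peaks of set 1, the share found in alpha-amanitin ectoderm was lower in the unshared regions (difference -22.97 percentage points, -24.0 to -21.9). It was -18.2 points (-19.4 to -17.0) as a mean over 5 bins of −log10 q and -18.9 points (-20.0 to -17.8) over 5 bins of width. Peaks with a mesoderm counterpart were also compared where they, too, lay outside untreated set 2. They were nonetheless chosen for recurring in a further list, set 1 mesoderm, and the unshared regions for recurring in no untreated list. The difference is therefore a description of how peaks were sorted, and no support. Of these peaks with a mesoderm counterpart, 5.78% (5.01 to 6.63) were in alpha-amanitin ectoderm, a difference of -3.28 points (-4.20 to -2.36). As a mean over 5 bins it was -2.10 points (-3.01 to -1.20) by −log10 q and -2.25 points (-3.15 to -1.35) by width. Of the ectoderm-only peaks that recurred in untreated set 2, 23.2% (20.1 to 26.4) were found. Of peaks with both counterparts, 39.9% (38.5 to 41.3) were found.

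**Figure D3:**
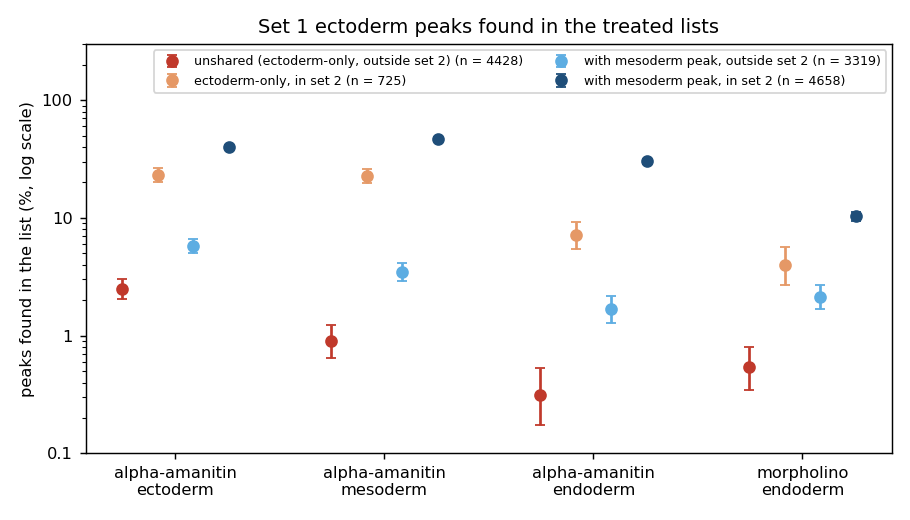
Share of set 1 ectoderm peaks (y axis, %, log scale) found in each of the 4 treated lists (x axis), for the unshared regions and the 3 other classes. Points are shares and bars exact 95% intervals. In each list the unshared regions have the lowest share, between 0.316% (endoderm after alpha-amanitin) and 2.51% (ectoderm after alpha-amanitin).

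At their deposited lengths, the treated list of the same layer held the most unshared regions, although the alpha-amanitin mesoderm list is longer. The share in alpha-amanitin ectoderm exceeded that in alpha-amanitin mesoderm by 1.60 points (1.10 to 2.11). Of the whole ectoderm list, 17.7% was in alpha-amanitin ectoderm and 19.2% in alpha-amanitin mesoderm. Of the unshared regions, 101 were in the ectoderm list and not in the mesoderm list, 30 the other way round, and 10 in both. These counts were 83, 79 and 85 for ectoderm-only peaks in set 2. They were 158, 82 and 34 for peaks with a mesoderm counterpart outside set 2, and 517, 857 and 1340 for peaks with both. With the 3 alpha-amanitin lists at their 2372 strongest peaks, 72 unshared regions were in ectoderm (1.63%, 1.27 to 2.04), 19 in mesoderm (0.429%, 0.259 to 0.669) and 14 in endoderm (0.316%). In the same order, the shares of ectoderm-only peaks in set 2 were 16.3%, 12.7% and 7.17%. They were 3.86%, 1.69% and 1.69% for peaks with a mesoderm counterpart outside set 2, and 31.9%, 34.4% and 30.3% for peaks with both. With all treated lists at their 1192 strongest peaks, alpha-amanitin ectoderm held 23 regions and alpha-amanitin mesoderm and endoderm 3 each. The morpholino list then held 24. In the same lists, morpholino last, the shares of ectoderm-only peaks in set 2 were 7.03%, 7.17%, 4.14% and 4%. They were 1.11%, 0.753%, 0.723% and 2.14% for peaks with a mesoderm counterpart outside set 2. Peaks with both had 18.8%, 19.1%, 17.1% and 10.3%.

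The rule used 2 mesoderm lists, that of set 1 and the long one of set 2, and its part in this order of layers was not tested. In peaks with a mesoderm counterpart outside untreated set 2, the share in alpha-amanitin ectoderm minus that in alpha-amanitin mesoderm was 2.29 points (1.38 to 3.20), and 2.17 points (1.43 to 2.91) at 2372 peaks per list. For ectoderm-only peaks in set 2 it was 0.552 points (-2.89 to 3.99) at deposited lengths and 3.59 points (0.610 to 6.56) at equal length. Peaks with both counterparts gave -7.30 points (-8.84 to -5.75) and -2.47 points (-3.97 to -0.967). The corresponding 6046 mesoderm-only peaks of set 1 that lie outside untreated set 2 had shares of 0.579% in alpha-amanitin ectoderm, 0.926% in alpha-amanitin mesoderm and 0.794% in alpha-amanitin endoderm, with an ectoderm minus mesoderm difference of -0.347 points (-0.628 to -0.0667). At 2372 peaks per list these shares were 0.380%, 0.463% and 0.794%, so that the list of the same layer did not hold the most of them, and ectoderm minus mesoderm was -0.0827 points (-0.310 to 0.144).

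The 111 regions found in alpha-amanitin ectoderm were wider and stronger than those found in no treated list. Their median width was 640 bp (quartiles 449 and 942.5 bp), against 374 bp, and their median −log10 q was 9.43 against 7.95. In the strongest bin, 18 of 198 unshared regions (9.09%, 5.48 to 14.0) were found, and in the weakest 14 of 1422 (0.985%, 0.539 to 1.65). By width, the share was 9.04% (6.18 to 12.6) in the widest and 0.472% (0.190 to 0.970) in the narrowest bin. The share of the other ectoderm peaks of set 1 also rose over the same bins, from 9.47% to 48.1% by strength and from 6.12% to 45.1% by width. On the side of the treated library, 118 alpha-amanitin ectoderm peaks lay on these regions. They had a median −log10 q of 12.1, with a range of 6.72 to 24.3, and a median percentile of 36.2 within their own list. The 2505 alpha-amanitin peaks on other set 1 ectoderm peaks had a median of 13.7.

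In the strongest bin of −log10 q, 48.1% of the other ectoderm peaks and 9.09% of the unshared regions were found in alpha-amanitin ectoderm. That bin runs from 13.8 to 159, while the unshared regions end at 27.0, so its peaks were not of equal strength. The other peaks there also include those with an untreated set 2 counterpart. Of the 10 strongest unshared regions, 3 were found in alpha-amanitin ectoderm, each in that treated list alone. They lay on chromosome 2 (123815697 to 123817238), chromosome 1 (80134206 to 80134776) and chromosome 7 (99528662 to 99529143), with −log10 q of 23.1, 22.7 and 22.6 in set 1. The first lay 1526 bp from an untreated set 2 ectoderm peak, the second 107702 bp and the third 154574 bp. The third had no peak of any excluding list within 154552 bp. No region was in all 4 treated lists. In 3 treated lists, those of alpha-amanitin, there were 3 regions. They lay on chromosome 6 (15879152 to 15879529), chromosome 3 (125052215 to 125052999) and chromosome 4 (4974081 to 4974314), with −log10 q of 12.6, 9.04 and 7.13. The first lay 251 bp from an untreated set 2 mesoderm peak and the second 419 bp from a set 1 mesoderm peak, while the nearest excluding peak of the third was 47799 bp off. A further 12 regions were in 2 treated lists and 156 in 1. Together these are the 171 regions (3.86%) in any treated list, against 29.4% of the whole ectoderm list. In alpha-amanitin ectoderm 91 regions lay within 500 bp of a peak without touching it, beside 111 that overlapped one. These counts were 48 and 40 in alpha-amanitin mesoderm, 14 and 14 in alpha-amanitin endoderm and 12 and 24 in morpholino endoderm. Overlaps included, 4.56% of the unshared regions lay within 500 bp of an alpha-amanitin ectoderm peak. It was 31.0% of ectoderm-only peaks in set 2, 8.89% of peaks with a mesoderm counterpart outside set 2 and 47.3% of peaks with both. For alpha-amanitin mesoderm it was 1.99% of the unshared regions, against 30.5%, 6.84% and 55.3% in the same classes. For alpha-amanitin endoderm it was 0.632%, against 11.4%, 3.59% and 37.1%. For morpholino endoderm it was 0.813%, against 6.07%, 2.95% and 13.3%.

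Some unshared regions lay close to excluding peaks and others far from any. The median gap to the nearest set 1 mesoderm peak was 11022.5 bp, with quartiles of 1835.5 and 52454.5 bp. To untreated set 2 peaks the median gap was 51523 bp in mesoderm, 97550 bp in ectoderm and 208318 bp in endoderm. These lists hold 8812, 4148 and 3740 peaks, and the part of list length in the gaps was not tested. Counting the nearest peak of any excluding list, 680 regions (15.4%) lay within 500 bp, 1196 (27.0%) between 500 and 5000 bp, 1547 (34.9%) between 5000 and 50000 bp and 928 (20.96%) farther off. The other 77 were on scaffolds with no excluding peak. Width and strength differed little over these bands, with median widths of 391 bp, 392.5 bp, 373 bp and 382 bp and median −log10 q of 8.31, 7.96, 7.86 and 7.91.

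Recurrence after alpha-amanitin was highest in the nearest band. In alpha-amanitin ectoderm 34 of the 680 regions within 500 bp of an excluding peak were found (5%, 3.49 to 6.92), and 2.68% (1.84 to 3.76), 2.26% (1.58 to 3.13) and 1.08% (0.518 to 1.97) in the farther bands. The intervals of adjoining bands overlapped, those of the nearest and the next band included. In alpha-amanitin mesoderm the shares were 2.79% (1.69 to 4.33), 1.00% (0.519 to 1.75), 0.323% (0.105 to 0.753) and 0.323% (0.0667 to 0.942). Here too the intervals of adjoining bands overlapped. Regions of the nearest band lie beside peaks of untreated libraries, and whether both belong to 1 domain of the mark was not tested.

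**Figure D4:**
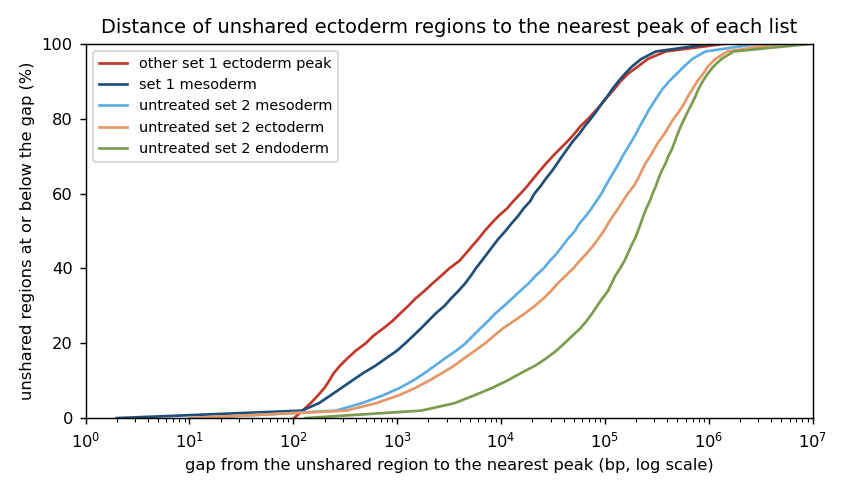
Cumulative share of the unshared regions (y axis, %) against the gap to the nearest peak of each list (x axis, bp, log scale). Medians run from 6945 bp for another set 1 ectoderm peak to 208318 bp for untreated set 2 endoderm.

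Within their own list the unshared regions were spread thinly. The nearest other set 1 ectoderm peak was 6945 bp away at the median (quartiles 829.5 and 47086.5 bp). The medians were 799 bp, 3121 bp and 444 bp for ectoderm-only peaks in set 2, peaks with a mesoderm counterpart outside set 2 and peaks with both. Still, 872 unshared regions (19.7%) had another ectoderm peak within 500 bp. The nearest other ectoderm peak was itself unshared for 1860 of 4351 regions (42.7%, 41.3 to 44.2), where 33.7% of the list is unshared. It was unshared for 27.5%, 31.8% and 15.1% of the peaks in the other classes. Neighbouring peaks are not independent, and peaks with both counterparts had their own class as nearest neighbour in 63.5% of cases.

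Regions with neighbours at most 5000 bp apart formed 486 groups, which held 1075 of the unshared regions (24.3%, 23.0 to 25.6). In the other classes, in the same order, 25.9%, 20.3% and 19.3% of peaks had an unshared region within 5000 bp. Any other ectoderm peak lay that near to 44.4% of the unshared regions, against 67.0%, 54.4% and 76.7% in the other classes. Of the 486 groups 403 were pairs, 66 had 3 regions, 14 had 4 and 3 had 5. The 3 largest lay on chromosome 4 (82509866 to 82516901 and 29637265 to 29648592) and chromosome 5 (28420362 to 28433764). The first spanned 7036 bp, of which its regions covered 2654 bp, with no set 1 mesoderm peak inside and −log10 q of 6.85 to 10.2. The second spanned 11328 bp and had 1 set 1 mesoderm peak inside, and the third spanned 13403 bp and had none. In the same order, the spans held 6, 6 and 5 set 1 ectoderm peaks, of which 5 each were unshared. The first and the second thus also held an ectoderm peak that the rule excluded. None of the 15 unshared regions was in a treated list, where 3.86% of all unshared regions were found in at least 1. So few regions cannot show a difference from that share.

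Unshared regions occurred on all 10 chromosomes, and 93.4% lay on a chromosome, against 92.8% of the whole list. Chromosome 1 held the most, 634, and chromosome 10 the fewest, 139. As a share of the ectoderm peaks of the same chromosome they ran from 31.4% (29.4 to 33.5) on chromosome 1 to 39.4% (36.8 to 42.1) on chromosome 4. The other 8 chromosomes lay between 32.5% and 35.0%, and the 294 regions on 186 scaffolds made up 31.3% (28.3 to 34.3) of scaffold peaks. Chromosome 4 was singled out after its value was seen. It held 531 unshared regions, and its share exceeded that of the other 9 chromosomes together, 33.2%, by 6.19 points (3.44 to 8.95). Peaks with both counterparts made up 29.7% there and 36.6% elsewhere, while the shares of the other classes differed by 0.665 points (-0.681 to 2.01) and 0.0610 points (-2.38 to 2.51). In windows of 10000000 bp along chromosome 4 the unshared share ran from 30.0% to 51.3%. Median width (386 bp) and −log10 q (7.95) of the regions on chromosome 4 were close to those of the whole set, and 17 of 531 (3.20%, 1.88 to 5.08) were in alpha-amanitin ectoderm.

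**Figure D5:**
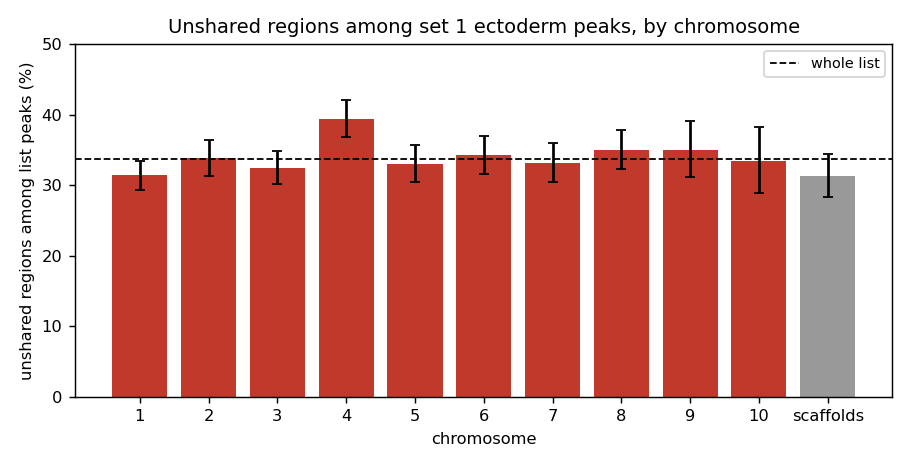
Share of set 1 ectoderm peaks that are unshared regions (y axis, %) by chromosome and for all scaffolds together (grey). Bars start at 0, error bars are exact 95% intervals and the dashed line is the whole list at 33.7%. Chromosome 4 stands highest at 39.4%.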

How the data were processed

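H3K4me1 ChIP-seq peak lists of 11 samples were used as deposited, in 9 lists. Samples were grouped by their titles. The submitters' processing notes name Bowtie2 2.2.7. Which caller, settings, filters and genome build were used is stated by no source used here. Per the peak names, the authors called each set 1 list on pooled replicates, and each set 2 list comes from 1 library. The authors deposited, per peak, a fold enrichment, a −log10 q, a score of at least 90 and a summit offset, which were used only within a list. Peak numbers in the set 1 ectoderm list run to 35831, so peaks had been removed. Read depth is unknown, which leaves the precision of a listed or missing peak open. The 15 single-embryo RNA samples were not used.

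Peaks counted as shared at an overlap of at least 1 bp. Gaps are the bases between peak edges. Shares carry exact Clopper-Pearson 95% intervals, medians were taken over peaks, and differences of shares carry normal 95% intervals, paired where the same peaks were compared. Bins are 5 equal parts by rank of the whole list. For a difference between the unshared regions and 1 other class, they are parts of those peaks together. Means over bins are unweighted. Regions named are the 10 strongest by −log10 q on chromosomes, the strongest on a scaffold, the 3 widest, the 3 largest groups, those in the most treated lists, the 3 strongest in alpha-amanitin ectoderm alone, and the 3 on either side of the rule's edge. The members, classes and alternatives were chosen with earlier results of these data known. Steps were tested on simulated data. Python 3.11.15 with numpy 2.4.6, pandas 2.3.3, scipy 1.17.1 and matplotlib 3.10.9 was used.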

Additional observations from a re-analysis of the deposited data

How the results depend on the processing

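Neither the difference from the other ectoderm peaks, nor ectoderm minus mesoderm after alpha-amanitin, nor the excess on chromosome 4 changed sign under the alternatives run. For each of these results a constant sign is a description and no support. Chromosome 4 was singled out after its value was seen, and its alternatives used the same peaks. The rule placed every peak with an untreated set 2 counterpart among the other peaks, and it used 2 mesoderm lists. Against peaks with a mesoderm counterpart outside untreated set 2, which were chosen for recurring in set 1 mesoderm, the first difference was -3.28 points. The number of unshared regions was 1225 in the upper 50% of the ectoderm list and 3748 when peaks within 500 bp counted as shared. It was 5585 with every peak cut to 150 bp on each side of its summit. With every excluding list at its 3740 strongest peaks it was 7988, so the count also depends on the lengths of those lists. Unshared regions made up 35.0% of the list with an overlap of 50% of the shorter peak, 42.5% with cut peaks and 18.7% in the upper 50%. With cut peaks, 3.26% of the regions were in alpha-amanitin ectoderm, 1.81% in alpha-amanitin mesoderm, 0.788% in alpha-amanitin endoderm and 5.48% in any treated list. In the upper 50% these were 4.65% in ectoderm, 0.163% in endoderm and 6.20% in any. At 1192 peaks per treated list they were 0.519% in ectoderm, 0.0678% in mesoderm and endoderm each and 1.17% in any. With the alpha-amanitin lists at 2372 peaks, an alternative added after seeing the data, they were 1.63% in ectoderm and 0.429% in mesoderm.

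The difference from the other ectoderm peaks in alpha-amanitin ectoderm was -27.3 points when peaks within 500 bp counted as shared, -20.03 with cut peaks, -29.6 in the upper 50%, -18.2 over strength bins and -18.9 over width bins. Ectoderm minus mesoderm after alpha-amanitin was 3.43 points in the upper 50% and 0.452 points at 1192 peaks. The median width was 494 bp in the upper 50%, 340.5 bp in the weakest and 604 bp in the strongest bin. In the weakest bin the other classes had medians of 416.5 bp, 434 bp and 484 bp, and in the strongest 757 bp, 568 bp and 885.5 bp. In the strongest bin the unshared regions did not have the lowest median, but the intervals of 604 bp and 568 bp overlapped.

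With cut peaks the median gap was 5148.5 bp to another ectoderm peak, 5320 bp to set 1 mesoderm and 21015.5 bp to untreated set 2. The upper 50% thins only the ectoderm list, so the turned order (20731 bp to ectoderm, 9725 bp to set 1 mesoderm) is no support. Groups of neighbours held 12% of regions in the upper 50%, where fewer regions could be neighbours. They held 17.5% at 2000 bp and 39.3% at 20000 bp. Leaving out a replicate was not possible because the replicates of set 1 are pooled in 1 list. No paired analysis was possible because both replicates of each set 1 layer are pooled in 1 list and set 2 has 1 library per condition.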
